A study of Mus musculus with 4 samples.

Results

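The response of cultured macrophages to lipopolysaccharide (LPS) was described here from a pair of libraries, the library titled WT with LPS and the untreated library titled WT. All genes whose mean over the 4 libraries of the series reached 1 CPM (read counts scaled by library total and TMM factor) were taken, which left 12326 of 54532 genes in the table. The cells were bone marrow-derived macrophages, grown for 6 days in medium with 20% of L929-conditioned supernatant, a source of macrophage colony-stimulating factor, from marrow of C57BL/6 mice aged 6 to 8 weeks. By the titles, WT is read here as mice with loxP-flanked Fbxw7 alleles (FBXW7f/f) without a Cre gene, and KO as the same floxed alleles with LysM-cre. LysM-cre is a recombinase gene driven by the lysozyme M locus and active in myeloid cells. The genotype field of the labels places the Cre gene otherwise, as described below, but gives every library the floxed alleles. Cells of each title were left untreated or given LPS for 3 h, with 1 library in each group. The sources used here give neither the LPS dose nor the number and sex of the mice behind a library.

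LPS is the outer-membrane glycolipid of Gram-negative bacteria. It is bound by CD14 and by TLR4 with its partner MD-2, and the receptor signals along one branch that frees NF-κB from its inhibitors and activates AP-1, and along another that activates IRF3 and leads to secretion of interferon β. Interferon β then acts back on the same cells through STAT factors, whose complex with IRF9 binds the interferon-stimulated response element. A macrophage at this early stage makes transcripts of effectors, of proteins that end the signal and of enzymes that redirect metabolism, and the lists below follow these roles.

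A doubt about the labels bears on every value. In the genotype field of the labels the Cre gene goes with LPS and its absence with no treatment, whatever the title, and the groups here follow the titles. Fbxw7 (ENSMUSG00000028086, mm10 chromosome 3, 84815268 to 84979198, plus strand), which encodes the substrate-binding subunit of a ubiquitin ligase, was at 17.9 and 9.90 CPM (1.81-fold lower, 1.51 to 2.18) in the WT-titled pair and at 17.2 and 11.7 CPM (1.48-fold lower) in the KO-titled pair, and a count over the whole gene does not show whether an exon is missing. The lysozyme gene Lyz1 was at 2.86 and 33.1 CPM in the WT-titled pair and at 32.9 and 2.63 CPM in the KO-titled pair, so that the WT library with LPS stood with the untreated KO library. Its neighbour Lyz2 was at 15253 and 9917 CPM and at 8711 and 18238 CPM in the same order. For this reason the values of the KO-titled pair, which shares no library with the WT-titled pair, are given beside those of the WT-titled pair for most genes and lists. The promoter shares rest on the calls of the WT-titled pair alone. A difference seen in the WT-titled pair alone cannot be told apart from a difference between these libraries that the titles do not describe. If the genotype field is right, both pairs set LPS with the Cre gene against no treatment without it. A call shared by both pairs then cannot be told apart from a difference of genotype. With 1 library in a group there is no replicate spread and no test, and a gene was called higher or lower where its log2 ratio (prior count of 2) reached 1 in size and the exact 95% binomial interval of its 2 counts excluded no change. The intervals printed beside folds cover counting error only. Folds against a library with 1 to 3 counts rest on few reads, and folds against 0 counts are given as at least the value at a floor of 3 counts.

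The libraries held 17610372 counts (untreated) and 20947275 counts (LPS) in the WT-titled pair, and 23835940 and 19464937 counts in the KO-titled pair. Of the 12326 genes, 1899 (15.4%) were called higher and 1847 (15.0%) lower after LPS in the WT-titled pair, so that 50.7% of the calls were higher. The median log2 ratio of all genes was −0.01. With library totals in place of TMM it was −0.63 and 22.2% of the calls were higher, and all statements of direction below are relative to the TMM scale. In the KO-titled pair 14.6% of genes were called higher and 17.8% lower. The same call was made in the KO-titled pair for 1285 (67.7%) of the genes called higher and 1097 (59.4%) of those called lower. Conversely, 71.3% of the genes called higher in the KO-titled pair, and 1097 of its 2196 genes called lower, had that call in the WT-titled pair. The opposite call was made for 93 genes (4.90% of those called higher) and 62 genes (3.36% of those called lower).

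**Figure D1:**
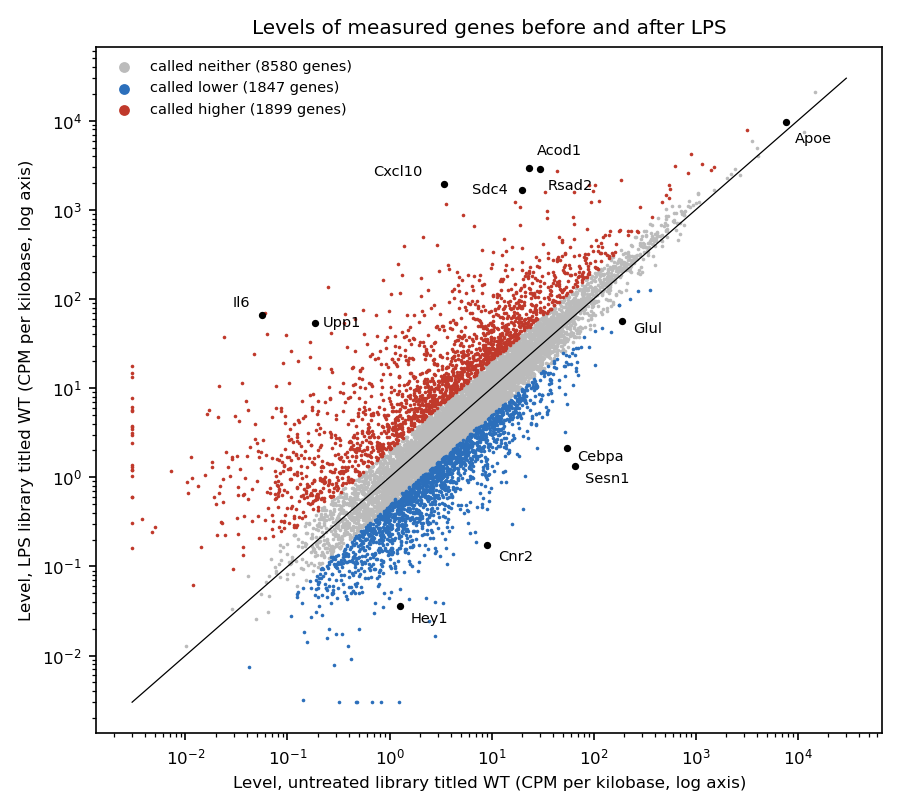
Level of each of the 12326 measured genes in the untreated (x axis) and the LPS (y axis) library titled WT, in TMM-scaled CPM per kilobase on log axes, with genes at or near 0 counts drawn at the left and lower edges and the line marking equal levels. The 1899 genes called higher reach high levels (Acod1 2951 after LPS), whereas the 1847 called lower lie mostly at low levels after LPS.

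Bulk RNA was measured, in which fewer cells of a type and less RNA per cell cannot be told apart. In the WT-titled pair the share of counts had to be larger after LPS for genes called higher and smaller for those called lower, by the calls themselves. The genes called higher took up a large part of the counts after LPS. They held 14.1% of all counts in the untreated WT library and 40.3% in the WT library with LPS, against 20.3% and 35.9% in the KO-titled pair. Genes called lower went from 7.19% to 1.56% of counts (5.95% and 2.12% in the KO-titled pair), and genes called neither from 78.4% to 58.0%. The median fold was 3.85 for genes called higher and 3.02 for genes called lower. At 10-fold or more there were 402 genes on the higher and 105 on the lower side, and at 100-fold or more 44 and 2.

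Levels between genes are compared below only as CPM per kilobase, called the level, and other values are CPM. Each pair of values gives the untreated library first, and a second pair in a sentence on 1 gene is that of the KO-titled libraries. The 12 protein-coding genes of largest gain in length-scaled abundance (TPM) were mostly not cytokines. Rsad2 (chromosome 12, 26442746 to 26456452, minus strand), which encodes viperin, an interferon-induced antiviral enzyme, was at 128 and 12389 CPM (96.5-fold higher, 92.9 to 100.1) in the WT-titled pair and at 195 and 15671 CPM (80.3-fold higher) in the KO-titled pair. Acod1 (chromosome 14, 103046977 to 103056573, plus strand), whose enzyme diverts citric acid cycle carbon into itaconate, was at 60.9 and 7739.8 CPM (127-fold higher, 120.4 to 134) and at 73.9 and 7311 CPM (99.0-fold higher). For both genes both LPS libraries lay above both untreated libraries, which in the WT-titled pair follows from the choice by gain. Of all genes called higher in the WT-titled pair, 67.7% had the same call in the KO-titled pair. After LPS the levels of Rsad2 and Acod1 in the WT-titled library were 2858 and 2951, not far from that of the actin gene Actb at 2261.

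A second set of large gains belonged to genes of the cell surface and cytoskeleton. Sdc4 (chromosome 2, 164424247 to 164443887, minus strand), which encodes the heparan sulfate proteoglycan syndecan 4, was at 50.9 and 4287 CPM (84.2-fold higher, 79.4 to 89.4) in the WT-titled pair and at 62.2 and 5545 CPM (89.2-fold higher) in the KO-titled pair. Marcksl1 (chromosome 4, 129513581 to 129515985, plus strand), encoding an actin-binding protein of the MARCKS family, was at 165 and 3021 CPM (18.3-fold higher, 17.7 to 18.9) and at 199 and 3352 CPM (16.9-fold higher). Cd14, the LPS coreceptor, was at 291 and 3366 CPM (11.6-fold higher, 11.3 to 11.9) and at 688 and 1575 CPM (2.29-fold higher). For all 3 genes both untreated libraries lay below both LPS libraries, in part by the choice of large gains. For Cd14 the untreated KO library stood well above the untreated WT library. The ubiquitin-like modifier gene Isg15 went from a level of 90.0 to 1883 and the tetratricopeptide-repeat gene Ifit1 from 33.7 to 1578 in the WT-titled pair, and in CPM they were 21.8-fold higher and 67.3-fold higher in the KO-titled pair. The chemokine genes Ccl4 and Cxcl10 reached levels of 2732 and 1931.

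The other 3 of the 12 largest gains were not shared by the KO-titled pair. B2m, the light chain of MHC class I molecules, was at 2725 and 6839 CPM (2.51-fold higher, 2.48 to 2.53) in the WT-titled pair and at 5111 and 4319 CPM (1.18-fold lower) in the KO-titled pair. Ctss, which encodes the antigen-processing protease cathepsin S, was at 1234 and 5711 CPM (4.63-fold higher, 4.57 to 4.69) and at 4968 and 1488 CPM (3.34-fold lower). Spp1, encoding the matrix phosphoprotein osteopontin, was at 1033 and 5073 CPM (4.91-fold higher, 4.84 to 4.98) and at 3851 and 1343 CPM (2.87-fold lower). For Ctss and Spp1 the untreated KO library lay near the WT library with LPS, and the KO library with LPS near the untreated WT library, the same pairing of libraries as for Lyz1. For B2m both KO libraries lay between the WT libraries.

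**Figure D2:**
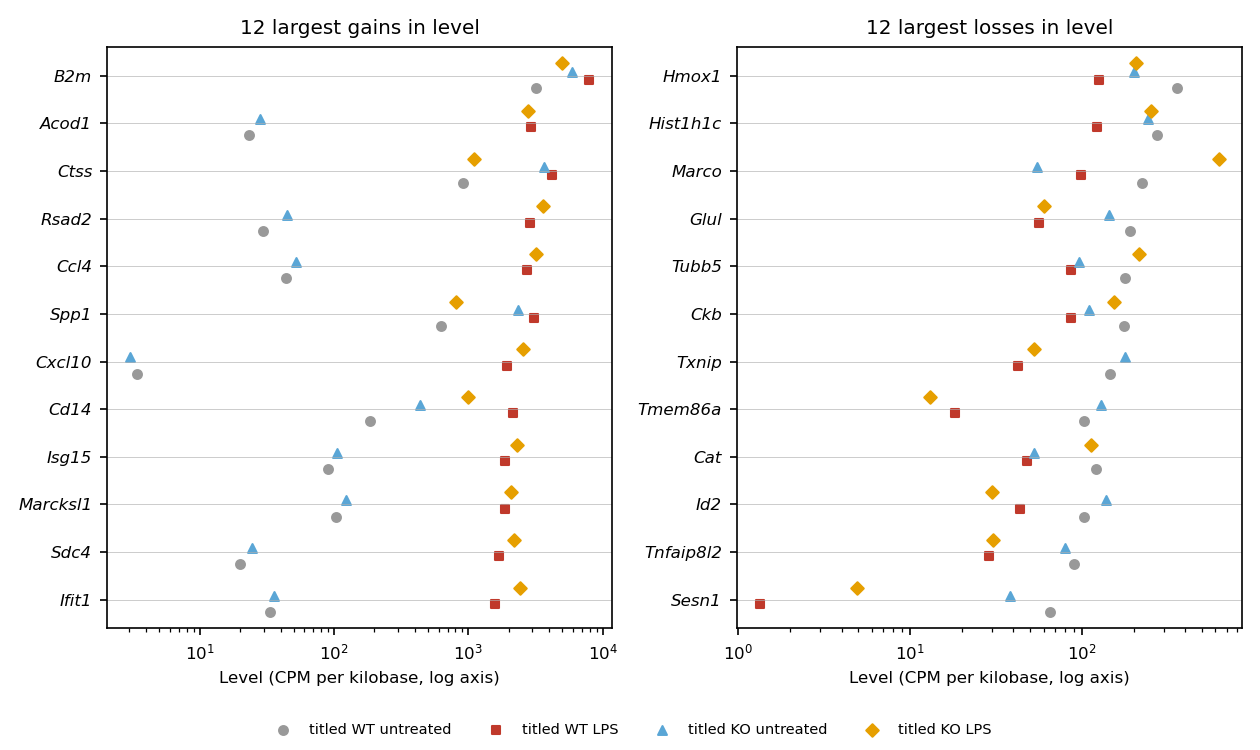
Level (TMM-scaled CPM per kilobase, log axis) of the 12 protein-coding genes of largest gain and the 12 of largest loss in TPM in the WT-titled pair, with 1 point for each of the 4 libraries. Acod1, Rsad2 and Sdc4 show both LPS libraries far to the right of both untreated libraries, whereas for Ctss, Spp1 and B2m the untreated library titled KO lies to the right of the LPS library titled KO.

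The 12 largest losses included metabolic and stress genes. Glul, encoding glutamine synthetase, was at 636 and 188 CPM (3.38-fold lower, 3.25 to 3.51) in the WT-titled pair and at 480.2 and 199 CPM (2.41-fold lower) in the KO-titled pair. Txnip, the thioredoxin-binding protein that restrains glucose uptake, was at 458 and 133 CPM (3.45-fold lower, 3.30 to 3.61) and at 555 and 165 CPM (3.37-fold lower). Tmem86a, encoding a lysoplasmalogenase, was at 196 and 34.5 CPM (5.67-fold lower, 5.21 to 6.19) and at 245 and 24.5 CPM (9.99-fold lower). These genes were lower after LPS in both pairs, as were Id2, an inhibitor of basic helix-loop-helix factors (2.35-fold lower, 2.23 to 2.48; 4.62-fold lower in the KO-titled pair), and Tnfaip8l2, a negative regulator of immune signalling (3.12-fold lower, 2.84 to 3.43; 2.61-fold lower). The steepest of the 12 was Sesn1, a p53-induced gene that restrains mTORC1, which had 5712 and 91 counts, or 259 and 5.30 CPM (48.9-fold lower, 39.7 to 60.8), in the WT-titled pair and 151 and 19.6 CPM (7.70-fold lower) in the KO-titled pair. The remaining 6 were not lower in the KO-titled pair. Hmox1, encoding the haem-degrading enzyme haem oxygenase 1, was at 625 and 221 CPM in the WT-titled pair and 351 and 362 CPM in the KO-titled pair. The linker histone gene Hist1h1c was at 426 and 191 CPM and 377 and 397 CPM, and the creatine kinase gene Ckb at 512 and 251 CPM and 320.2 and 448 CPM. Marco (a scavenger receptor), Cat (catalase) and Tubb5 (a tubulin) had opposite calls, with 434 and 190.3 CPM against 106 and 1211 CPM, 316 and 125 CPM against 137 and 296 CPM, and 594 and 287 CPM against 322 and 721 CPM.

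Some abundant genes hardly moved in the WT-titled pair. Apoe, which encodes apolipoprotein E, was at 16554 and 20616 CPM, and Tmsb4x, the actin-sequestering thymosin β4, at 5623 and 5533 CPM (1.02-fold lower, 1.01 to 1.02). Ftl1, a ferritin light chain, was at 3667 and 3292 CPM (1.11-fold lower, 1.10 to 1.13), Eef1a1, an elongation factor, at 5483 and 6223 CPM (1.13-fold higher, 1.13 to 1.14), and Tyrobp, the adaptor DAP12, at 677 and 796 CPM (1.18-fold higher, 1.15 to 1.20). In the KO-titled pair Apoe, Ftl1 and Tyrobp also differed little (1.03-fold higher, 1.04-fold higher and 1.02-fold higher), while Tmsb4x was 1.97-fold higher and Actb, at 5401 and 6058 CPM in the WT-titled pair, was 2.62-fold higher.

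At the other extreme stood genes with at most 3 counts in one library. Il19, a cytokine of the interleukin 10 family, had 0 and 289 counts in the WT-titled pair (at least 124-fold higher) and 0 and 128 counts in the KO-titled pair (at least 72.2-fold higher). Ptx3, a soluble pattern-recognition pentraxin, had 1 and 263 counts and 1 and 131 counts. Lipg, encoding endothelial lipase, had 3 and 748 counts and 3 and 353 counts, and Tnfaip6, encoding a hyaluronan-binding protein, had 0 and 165 counts and 10 and 229 counts. U90926, annotated as protein coding in the table, had 0 and 182 counts and 0 and 29 counts. These 5 genes thus had at most 10 counts in the untreated libraries of both titles, and their counts after LPS were lower in the KO-titled library for Il19, Ptx3, Lipg and U90926. Genes that went the other way included Rtn4rl1, a Nogo receptor homologue (218 and 1 counts; 84 and 5 counts in the KO-titled pair), the deubiquitinase gene Usp2 (257 and 2 counts; 210 and 3 counts), the kinase gene Dmpk (264 and 3 counts; 140 and 0 counts), the growth factor gene Mdk (67 and 1 counts; 33 and 3 counts) and the transporter gene Spns3 (101 and 0 counts; 65 and 8 counts). Gpr183, the oxysterol-sensing receptor EBI2, had 79 and 0 counts (at least 20.5-fold lower) and 115 and 2 counts.

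The DNA upstream of the called genes was compared in the promoter windows of RefSeq (assembly GRCm38.p6), which cover 250 bases before and 50 bases after the start and were matched for 8866 of the 11119 protein-coding genes measured (79.7%). Motifs were sought as exact letters on both strands. The interferon-stimulated response element (ISRE), searched as GAAA and GAAA with any 2 bases between them, was present in 8.28% of windows of genes called higher, 2.23% of those called lower and 3.41% of all windows. The AP-1 motif TGANTCA was present in 8.28%, 3.93% and 4.88%, and the TATA box TATAAA in 10.8%, 5.04% and 6.59%. The NF-κB motif, searched as GGGA and TTTCC with any 1 base between them, was rare and present in 16 of 1280 windows of genes called higher, 0.445% of those called lower and 0.440% of all. The E2F motif TTTCCCGC had the opposite order, with 1.33% of windows of genes called higher, 3.78% of those called lower and 2.28% of all, and so had CCAAT, with 34.9%, 43.0% and 39.2%. Also searched were TGACGTCA, TTTGAA and CACGTG, present in 2.58%, 12.7% and 9.69% of windows of genes called higher. Their shares were 2.52%, 14.7% and 10.2% of those called lower and 3.37%, 11.8% and 10.5% of all. All of these are matches of letters in short windows and not bound sites.

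The windows of 6 genes with the same call in both titled pairs are shown as examples, 250 bases each up to the base before the annotated start, 5′ to 3′ along the gene, with the motif in capitals. For Rsad2 (chr12:26456453-26456702, minus strand), Cxcl10 (chr5:92348890-92349139, minus strand) and Isg15 (chr4:156200819-156201068, minus strand) the capitals mark the ISRE or its reverse complement, which occurs 3 times with overlaps in Isg15. For Nfkbia (chr12:55492648-55492897, minus strand), which encodes the NF-κB inhibitor IκBα, and Mdfic (chr6:15720411-15720660, plus strand) they mark the NF-κB motif or its reverse complement. For Kmt5c (chr7:4739877-4740126, plus strand), a histone H4 lysine methyltransferase gene called lower, they mark the reverse complement of the E2F motif.
Rsad2: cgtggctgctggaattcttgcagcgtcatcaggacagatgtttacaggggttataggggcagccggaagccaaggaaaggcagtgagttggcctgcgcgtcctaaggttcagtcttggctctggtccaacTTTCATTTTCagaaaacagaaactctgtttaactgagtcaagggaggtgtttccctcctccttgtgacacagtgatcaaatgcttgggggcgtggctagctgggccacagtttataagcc
Cxcl10: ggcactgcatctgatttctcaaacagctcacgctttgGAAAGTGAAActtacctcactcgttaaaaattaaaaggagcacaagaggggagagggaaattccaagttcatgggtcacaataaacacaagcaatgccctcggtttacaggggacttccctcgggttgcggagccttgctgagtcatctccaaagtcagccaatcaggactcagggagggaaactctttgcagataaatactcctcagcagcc
Isg15: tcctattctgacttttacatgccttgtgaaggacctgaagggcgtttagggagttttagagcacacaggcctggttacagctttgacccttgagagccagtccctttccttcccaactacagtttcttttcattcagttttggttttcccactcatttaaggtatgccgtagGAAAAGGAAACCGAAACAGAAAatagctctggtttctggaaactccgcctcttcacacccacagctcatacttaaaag
Nfkbia: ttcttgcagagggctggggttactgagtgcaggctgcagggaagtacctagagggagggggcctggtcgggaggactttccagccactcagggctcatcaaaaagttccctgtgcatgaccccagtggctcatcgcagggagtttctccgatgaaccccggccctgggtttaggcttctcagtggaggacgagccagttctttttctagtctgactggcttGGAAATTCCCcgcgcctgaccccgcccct
Mdfic: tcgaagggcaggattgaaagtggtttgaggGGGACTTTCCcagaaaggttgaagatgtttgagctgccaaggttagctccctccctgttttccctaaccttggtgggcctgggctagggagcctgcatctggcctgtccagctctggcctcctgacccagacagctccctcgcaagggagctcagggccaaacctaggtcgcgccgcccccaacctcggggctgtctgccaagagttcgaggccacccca
Kmt5c: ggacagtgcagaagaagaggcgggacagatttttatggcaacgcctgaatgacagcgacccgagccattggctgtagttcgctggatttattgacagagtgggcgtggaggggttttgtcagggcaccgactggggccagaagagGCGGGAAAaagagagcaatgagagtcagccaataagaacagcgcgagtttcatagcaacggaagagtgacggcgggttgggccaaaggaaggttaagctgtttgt

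The motif closest to the start ended 20 bases before it in Nfkbia, 57 in Isg15, 98 in Kmt5c and 111 in Rsad2, and those of Cxcl10 and Mdfic ended 204 and 211 bases before it. Cxcl10, with 10 CpG in its window, was at 7.66 and 4348 CPM (567-fold higher, 488 to 664) in the WT-titled pair and at 6.80 and 5797 CPM (853-fold higher) in the KO-titled pair. Nfkbia, with 15 CpG, was at 73.0 and 805 CPM (11.0-fold higher, 10.5 to 11.6) and 74.0 and 673 CPM (9.09-fold higher). Mdfic, with 8 CpG, was at 109 and 928 CPM (8.55-fold higher, 8.19 to 8.93) and 180.2 and 983 CPM (5.45-fold higher). Kmt5c, with 22 CpG, was at 36.0 and 5.07 CPM (7.11-fold lower, 5.69 to 8.98) and 36.1 and 3.12 CPM (11.6-fold lower). These genes were picked for the same call in both titled pairs and ranked by gain or loss in TPM. That their untreated and LPS libraries did not overlap therefore follows largely from the choice.

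The promoters also differed in base composition with the size of the difference. The median window held 22 CpG among genes with a log2 ratio between −1 and 1, 18 between 2 and 3, 11 between 3 and 5, and 8 among the 77 genes at 5 or more. Windows with fewer than 5 CpG made up 4.745% of the first class and 32.47% of the last. In the last class 29.87% of windows held TATAAA, 23.38% the AP-1 motif, 12.99% the ISRE and 6.494% the NF-κB motif. Genes with a log2 ratio of −3 or less had a median of 19 CpG, and 6.024% of their 83 windows held TATAAA. Low CpG content was thus most frequent at the upper end of the response, and was also more frequent in the class at −3 or less, where 15.66% of windows had fewer than 5 CpG, than among genes between −1 and 1.

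**Figure D3:**
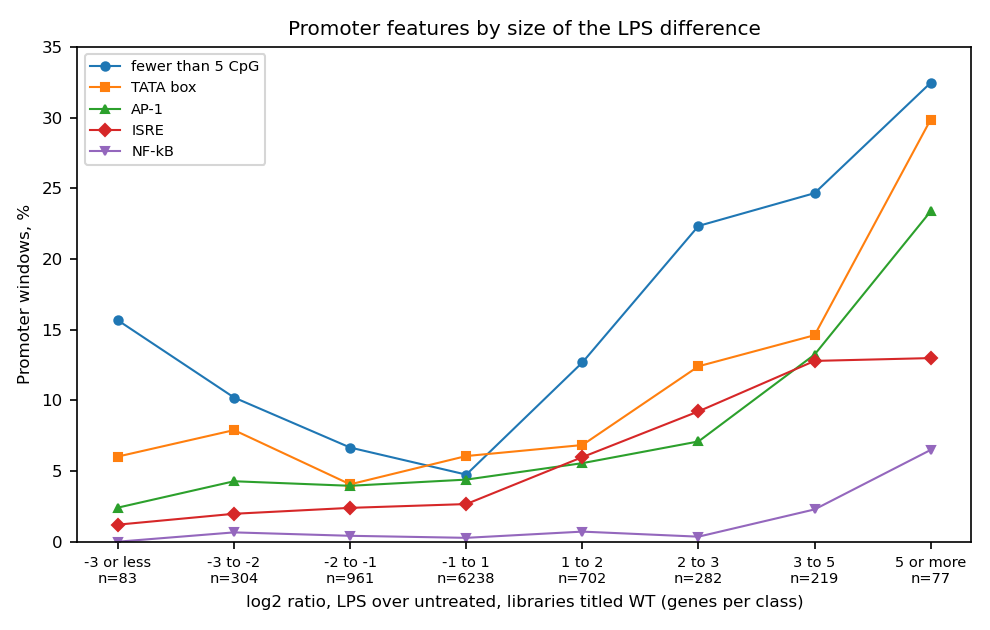
Share of promoter windows (300 bases) with fewer than 5 CpG or with each of 4 motifs, by class of log2 ratio in the WT-titled pair, with the number of genes under each class. Windows with fewer than 5 CpG go from 4.745% in the class between −1 and 1 to 32.47% in the class at 5 or more.

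The gene lists below are to be read against all genes measured, of which 15.4% were called higher and 15.0% lower in the WT-titled pair. The lists were chosen with earlier results of these data known, so their shares are description only. Among receptors for microbial products, 12 of 20 measured members were called higher and 1 lower (Tlr5), with a median log2 ratio of 1.22 (13 higher and 2 lower in the KO-titled pair, median 1.22). Clec4e, encoding Mincle, a receptor for mycobacterial glycolipid, was at 39.7 and 1753 CPM (44.1-fold higher, 41.2 to 47.2) in the WT-titled pair and at 94.5 and 736 CPM (7.79-fold higher) in the KO-titled pair. Nod2, the cytosolic sensor of muramyl dipeptide, was at 7.85 and 173 CPM (22.1-fold higher, 18.9 to 25.9) and 13.1 and 114 CPM (8.66-fold higher). The formyl peptide receptor gene Fpr2 was at 22.1 and 189 CPM (8.57-fold higher, 7.78 to 9.44) and 21.6 and 201 CPM (9.32-fold higher). Among the Toll-like receptors, Tlr3 was 7.01-fold higher (6.21 to 7.93) and Tlr2 6.59-fold higher (6.34 to 6.86) in the WT-titled pair (4.47-fold higher and 7.65-fold higher in the KO-titled pair). Tlr5, the flagellin receptor, was the member called lower, with 101 and 11 counts in the WT-titled pair and 141 and 1 counts in the KO-titled pair.

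Of the protein kinases of immediate signalling, 19 of 54 measured members were called higher and 1 lower (Map2k6), with a median log2 ratio of 0.47 (−0.14 with library totals, and 16 higher and 3 lower in the KO-titled pair, median 0.48). Pim1, a survival kinase, was at 17.7 and 474 CPM (26.8-fold higher, 24.2 to 29.7) in the WT-titled pair and 41.3 and 469 CPM (11.4-fold higher) in the KO-titled pair. Jak2, a kinase of cytokine receptors, was at 40.7 and 720.1 CPM (17.7-fold higher, 16.5 to 19.0) and 41.9 and 546 CPM (13.1-fold higher). Src was at 7.03 and 137 CPM (19.5-fold higher, 16.6 to 23.1) and 11.3 and 74.8 CPM (6.61-fold higher). The most abundant member after LPS was Mapkapk2, encoding MK2, which stabilises inflammatory mRNAs, at 179.6 and 1176 CPM (6.55-fold higher, 6.33 to 6.78) and 172 and 1432 CPM (8.34-fold higher). Map2k6, an activator of p38, was 2.92-fold lower (1.52 to 6.07) in the WT-titled and 3.65-fold lower in the KO-titled pair. These genes had the same calls in both pairs.

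Ubiquitin editors formed one of the lists with the largest share called higher, among lists chosen with earlier results of these data known. Here 22 of 34 measured members were called higher and 1 lower (Peli2), with a median log2 ratio of 1.49 (19 higher and 3 lower in the KO-titled pair, median 1.23), against a background of 15.4% called higher. Tnfaip3, encoding A20, which removes ubiquitin chains that carry the NF-κB signal, was at 22.0 and 1482 CPM (67.4-fold higher, 61.6 to 73.9) in the WT-titled pair and 32.5 and 1258 CPM (38.7-fold higher) in the KO-titled pair. Traf1, an adaptor of TNF receptors, was at 6.62 and 342 CPM (51.6-fold higher, 43.8 to 61.2) and 17.4 and 144 CPM (8.26-fold higher). Tnip3, a partner of A20, was at 52.1 and 865 CPM (16.6-fold higher, 15.6 to 17.7) and 48.8 and 807 CPM (16.5-fold higher). Of the Pellino ubiquitin ligases, Peli1 was at 41.9 and 630.1 CPM (15.0-fold higher, 14.1 to 16.1) and 43.2 and 789 CPM (18.3-fold higher) whereas Peli2 was at 22.4 and 8.15 CPM (2.75-fold lower, 2.27 to 3.34) and 23.4 and 8.38 CPM (2.79-fold lower). The pair of Pellino genes thus had opposite calls in both titled pairs. Usp18, which removes ISG15 from proteins, reached a level of 214 after LPS, from 20.0.

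Among interferon-induced effectors 41 of 42 measured members were called higher and 0 lower, with a median log2 ratio of 3.01 (36 higher and 0 lower in the KO-titled pair, median 3.02). Gbp5, a guanylate-binding protein, was at 9.16 and 2602 CPM (284-fold higher, 247 to 328) in the WT-titled pair and 5.64 and 2950.3 CPM (523-fold higher) in the KO-titled pair. Cmpk2, the mitochondrial nucleotide kinase whose gene lies beside Rsad2, was at 70.3 and 5126 CPM (73.0-fold higher, 69.4 to 76.8) and 84.7 and 6947 CPM (82.0-fold higher). Parp14, a mono-ADP-ribosyltransferase, was at 434 and 2521 CPM (5.81-fold higher, 5.69 to 5.94) and 371 and 3150.2 CPM (8.49-fold higher). Irf7, the amplifier of type I interferon, was at 136 and 1252 CPM (9.19-fold higher, 8.85 to 9.55) in the WT-titled and 606 and 799.5 CPM (1.32-fold higher) in the KO-titled pair, where the untreated library was already high. The share called higher was the largest among the 39 lists, which were chosen with earlier results of these data known. Several members lie in gene clusters with close copies, whose reads the counting could divide among them.

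**Figure D4:**
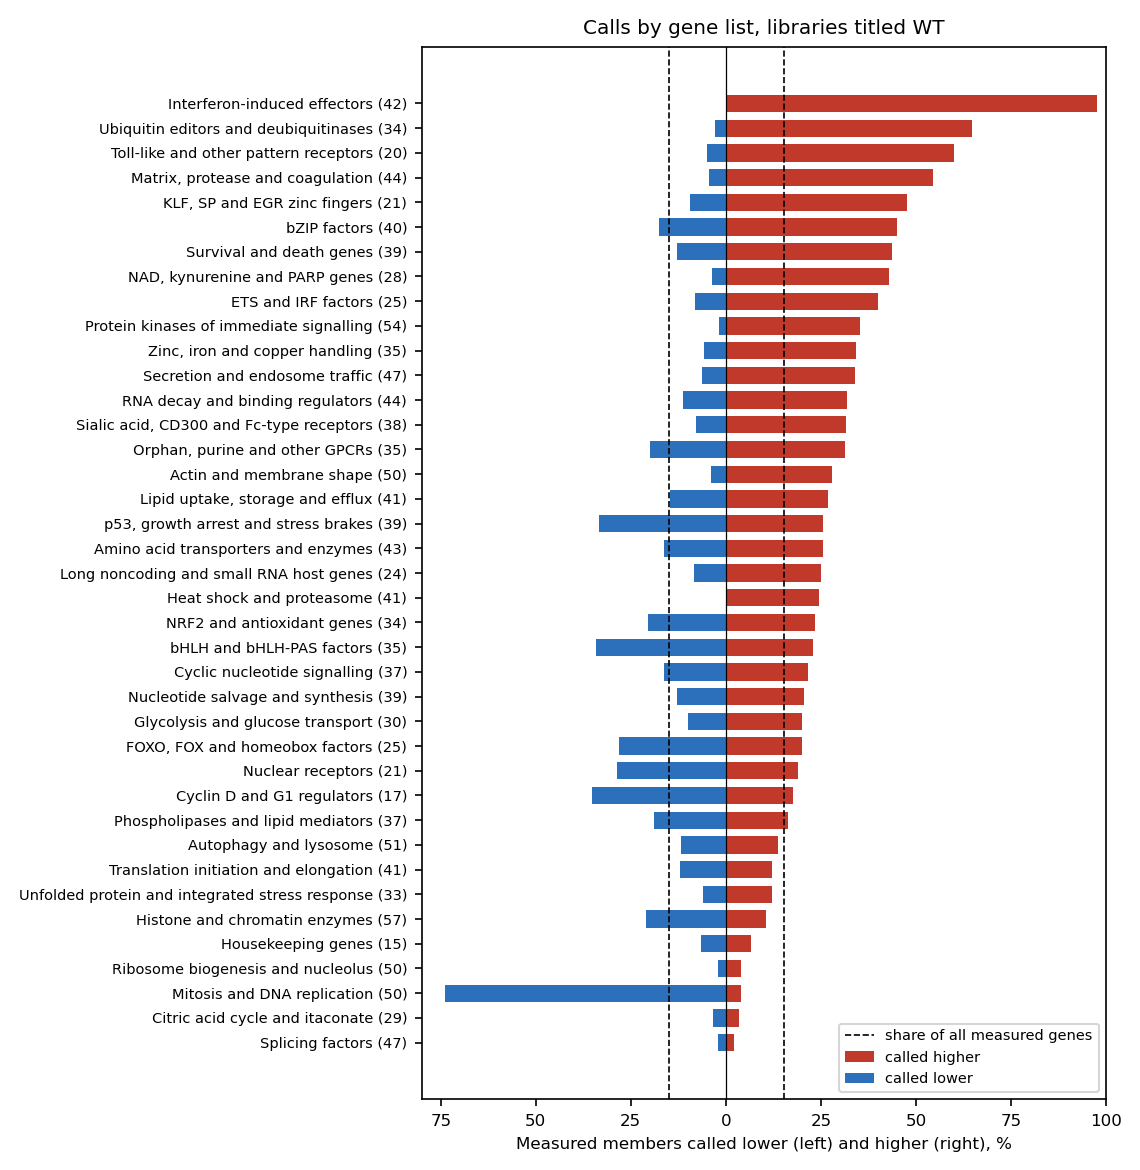
Share of measured members called lower (bars to the left) and higher (bars to the right) in the WT-titled pair for 39 gene lists, with the number of measured members in parentheses and dashed lines at the shares of all 12326 genes (15.0% and 15.4%). The interferon-induced effectors have the longest bar to the right and the mitosis and DNA replication genes the longest to the left.

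Transcription factors as a whole were called at about the background share in the WT-titled pair, and were lower more often than that share in the KO-titled pair. Of 780 factors measured, as marked in the table, 126 (16.2%) were called higher and 133 (17.1%) lower, with a median log2 ratio of −0.14. In the KO-titled pair 112 were called higher and 204 (26.2%) lower, where 17.8% of all genes were called lower. The families differed. Of 9 Rel homology factors 5 were called higher (Nfkb1, Nfkb2, Rel, Rela, Relb) and 2 lower (Nfatc1, Nfatc2), with the same calls in the KO-titled pair. Of 7 STAT factors 5 were called higher and 0 lower, and of 8 IRF factors 4 higher (Irf1, Irf2, Irf5, Irf7) and 0 lower, with the same numbers in the KO-titled pair. None of the 5 factors of the RXR-like class was called higher and 4 were called lower (Nr2c2, Nr2f6, Rxra, Rxrb), also in the KO-titled pair. Of 10 E2F factors 1 was called higher (E2f5) and 5 lower (E2f2, E2f6, E2f7, E2f8, Tfdp2), of which E2f2 and Tfdp2 were called lower in the KO-titled pair. The C2H2 zinc finger class, the most numerous, had 37 higher and 51 lower of 375, against 31 higher and 113 lower in the KO-titled pair.

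Among bZIP factors 18 of 40 measured members were called higher and 7 lower, with a median log2 ratio of 0.61 (12 higher and 8 lower in the KO-titled pair, median 0.11). Batf2 was at 5.53 and 168 CPM (30.3-fold higher, 25.3 to 36.6) in the WT-titled pair and 6.76 and 156 CPM (23.1-fold higher) in the KO-titled pair. The small Maf factor gene Maff was at 2.40 and 73.3 CPM (30.5-fold higher, 23.2 to 40.9) and 2.39 and 77.6 CPM (32.5-fold higher). Junb, an AP-1 subunit and the member of highest level, was at 119.6 and 759 CPM (6.35-fold higher, 6.09 to 6.62) and 212 and 785 CPM (3.70-fold higher). Cebpa, the C/EBP factor of the myeloid lineage, was at 144 and 5.59 CPM (25.8-fold lower, 21.0 to 31.9) and 106 and 4.47 CPM (23.8-fold lower). Maf, a large Maf factor of macrophages, was 3.02-fold lower (2.89 to 3.15) in the WT-titled pair and 3.73-fold lower in the KO-titled pair. The clock output genes Tef and Dbp were 4.04-fold lower (3.51 to 4.66) and 3.99-fold lower (2.86 to 5.66) in the WT-titled and 4.19-fold lower and 5.68-fold lower in the KO-titled pair. The small Maf genes Maff and Mafk and the large Maf gene Maf therefore had opposite calls in both pairs, while Mafg, also a small Maf gene, was 2.62-fold lower (2.42 to 2.84) in the WT-titled pair and 1.94-fold lower in the KO-titled pair. Fosb was at 0.998 and 19.5 CPM in the WT-titled pair but at 3.62 and 4.04 CPM in the KO-titled pair.

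In the helix-loop-helix class 8 of 35 measured members were called higher and 12 lower, with a median log2 ratio of 0.05 (−0.56 with library totals, and 7 higher and 13 lower in the KO-titled pair, median −0.45), and members of the same subfamily diverged. Of the MiT factors, Tfeb, a regulator of lysosomal genes, was at 39.1 and 1.40 CPM (28.0-fold lower, 18.7 to 43.9) in the WT-titled pair and 35.04 and 1.90 CPM (18.5-fold lower) in the KO-titled pair, whereas Mitf was at 39.0 and 157 CPM (4.02-fold higher, 3.72 to 4.34) and 36.6 and 189.5 CPM (5.18-fold higher). Tfec was at 9.57 and 41.1 CPM (4.30-fold higher, 3.68 to 5.03) and 4.16 and 74.0 CPM (17.8-fold higher). Of the MAX partners, Mxd1 was 5.02-fold higher (4.55 to 5.54) and Mxd4 8.70-fold lower (7.38 to 10.3) in the WT-titled and 7.42-fold higher and 5.35-fold lower in the KO-titled pair, while Mycl went from 1 to 118 counts (2 and 87 counts in the KO-titled pair). Ahrr, the repressor of the aryl hydrocarbon receptor, was at 14.7 and 0.408 CPM (36.2-fold lower, 17.4 to 90.7) and 13.2 and 0.428 CPM (30.9-fold lower). Its receptor gene Ahr was 4.04-fold higher (3.06 to 5.39) in the WT-titled pair and 1.37-fold higher in the KO-titled pair. Hey1, a Notch target, had 92 and 2 counts and 119 and 3 counts. The divergence within the MiT and MAX-partner subfamilies was therefore seen in both pairs, and that of Ahr and Ahrr in the WT-titled pair alone by the call rule.

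For ETS and IRF factors 10 of 25 measured members were called higher and 2 lower (Erf, Fli1), with a median log2 ratio of 0.69 (11 higher and 2 lower in the KO-titled pair, median 0.73). Irf1 was at 63.1 and 853 CPM (13.5-fold higher, 12.8 to 14.3) in the WT-titled pair and 71.7 and 891 CPM (12.4-fold higher) in the KO-titled pair. Etv3, an ETS repressor, was at 111 and 797 CPM (7.20-fold higher, 6.90 to 7.52) and 115 and 562 CPM (4.89-fold higher), whereas another ETS repressor, Erf, was at 67.1 and 12.98 CPM (5.17-fold lower, 4.49 to 5.98) and 78.2 and 14.7 CPM (5.33-fold lower). Fli1 was at 82.5 and 25.6 CPM (3.22-fold lower, 2.90 to 3.58) and 75.9 and 27.0 CPM (2.80-fold lower). Of the KLF, SP and EGR zinc fingers, 10 of 21 measured members were called higher and 2 lower (Klf11, Sp3), with a median log2 ratio of 0.64 (8 higher and 2 lower in the KO-titled pair, median 0.56). Klf8 was at 0.907 and 29.9 CPM (32.9-fold higher, 21.1 to 54.4) and 1.19 and 38.4 CPM (32.2-fold higher). Klf6, the member of highest level, was at 192 and 1236 CPM (6.43-fold higher, 6.22 to 6.64) and 260.0 and 970.4 CPM (3.73-fold higher). The immediate early gene Egr1 was at 8.98 and 64.3 CPM (7.16-fold higher, 6.15 to 8.37) and 13.9 and 42.2 CPM (3.04-fold higher). The 2 members called lower had that call in the KO-titled pair too.

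For nuclear receptors 4 of 21 measured members were called higher (Nr3c1, Nr4a1, Nr4a2, Nr4a3) and 6 lower, with a median log2 ratio of −0.36 (3 higher and 12 lower in the KO-titled pair, median −1.27). The retinoid X receptor gene Rxra, whose product pairs with LXR, PPAR and RAR, was at 123 and 18.1 CPM (6.76-fold lower, 6.01 to 7.63) in the WT-titled pair and 88.0 and 23.1 CPM (3.80-fold lower) in the KO-titled pair, and Rxrb and Rara were 2.91-fold lower (2.60 to 3.27) and 2.79-fold lower (2.23 to 3.53) in the WT-titled and 2.73-fold lower and 4.36-fold lower in the KO-titled pair. Nr3c1, the glucocorticoid receptor gene, went the other way, at 99.8 and 361 CPM (3.62-fold higher, 3.44 to 3.80) and 73.4 and 406 CPM (5.53-fold higher). The NR4A genes, early response orphan receptors, split by title. Nr4a3 was higher in both pairs (32.2-fold higher, 19.9 to 55.9; 6.43-fold higher), but Nr4a1 was at 11.2 and 24.5 CPM in the WT-titled and 25.8 and 7.10 CPM in the KO-titled pair, and Nr4a2 at 3.22 and 9.84 CPM and 11.5 and 3.67 CPM. In the forkhead and homeobox group 5 of 25 measured members were called higher and 7 lower, with a median log2 ratio of −0.25 (4 higher and 7 lower in the KO-titled pair, median −0.12). Foxo3, a driver of atrophy and death genes when growth signals fade, was at 105 and 6.70 CPM (15.7-fold lower, 13.05 to 19.2) and 74.6 and 6.85 CPM (10.9-fold lower), and Foxo4 was 3.04-fold lower (2.54 to 3.67) and 4.28-fold lower. Foxp1 and Foxp4 were 4.72-fold higher (4.42 to 5.05) and 14.1-fold higher (12.05 to 16.6) in the WT-titled and 4.27-fold higher and 4.91-fold higher in the KO-titled pair. The FOXO and FOXP genes named here thus had opposite calls in both pairs.

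For the citric acid cycle 1 of 29 measured members was called higher (Acod1) and 1 lower (Pcx), with a median log2 ratio of 0.16 (−0.45 with library totals, and 2 higher and 0 lower in the KO-titled pair, median 0.20). Pcx, pyruvate carboxylase, was at 5.71 and 1.51 CPM in the WT-titled and 1.55 and 4.71 CPM in the KO-titled pair, with opposite calls. For glycolysis 6 of 30 measured members were called higher and 3 lower (Gapdh, Pfkfb4, Pfkl), with a median log2 ratio of −0.25 (8 higher and 5 lower in the KO-titled pair, median 0.36). Slc16a1, encoding the lactate transporter MCT1, was at 9.16 and 328 CPM (35.8-fold higher, 31.1 to 41.4) in the WT-titled pair and 9.33 and 448 CPM (48.0-fold higher) in the KO-titled pair. The hexose transporter gene Slc2a6 was at 26.9 and 478 CPM (17.7-fold higher, 16.3 to 19.3) and 32.5 and 325 CPM (9.97-fold higher). Of the bifunctional enzymes that set fructose 2,6-bisphosphate, Pfkfb3 was at 89.7 and 625 CPM (6.97-fold higher, 6.64 to 7.31) and 88.2 and 416 CPM (4.72-fold higher). Pfkfb4 was at 41.0 and 13.2 CPM (3.12-fold lower, 2.69 to 3.62) and 44.1 and 10.4 CPM (4.24-fold lower). Among the phosphofructokinase subunits Pfkp was 5.32-fold higher (5.00 to 5.66) in the WT-titled and 3.18-fold higher in the KO-titled pair, while Pfkl was 2.68-fold lower (2.43 to 2.96) in the WT-titled and 1.19-fold lower in the KO-titled pair. Slc16a1, Slc2a6, Pfkfb3 and Pfkfb4 thus had the same calls in both pairs. The abundant glycolytic enzyme gene Pkm was at 2017 and 1211 CPM and 1299 and 1816 CPM, with a call in neither. Gapdh had 167 and 63 counts in the WT-titled pair against 44473 and 20796 counts of Pkm, and 1805 and 58 counts in the KO-titled pair, so that the untreated library titled KO stood above the other 3. Many processed copies of Gapdh exist, and whether its reads were lost to them was not tested.

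Among nucleotide genes 8 of 39 measured members were called higher and 5 lower (Dut, Rrm1, Rrm2, Tk1, Umps), with a median log2 ratio of −0.10 (10 higher and 2 lower in the KO-titled pair, median 0.30). Upp1, encoding uridine phosphorylase, was at 0.363 and 106 CPM (292-fold higher, 148 to 676) in the WT-titled pair and 1.41 and 78.2 CPM (55.5-fold higher) in the KO-titled pair. Pnp, purine nucleoside phosphorylase, was at 83.2 and 562 CPM (6.75-fold higher, 6.42 to 7.10) and 98.6 and 583 CPM (5.91-fold higher). Nt5c3, a pyrimidine nucleotidase, was at 27.4 and 295 CPM (10.8-fold higher, 9.90 to 11.7) and 25.1 and 333 CPM (13.3-fold higher). The genes called lower encode subunits of ribonucleotide reductase (Rrm1, Rrm2), thymidine kinase (Tk1), dUTPase (Dut) and UMP synthase (Umps). Of these, Umps alone was also called lower in the KO-titled pair (2.37-fold lower, 2.02 to 2.79; 2.34-fold lower), and Rrm2, for example, was at 67.3 and 11.2 CPM in the WT-titled and 31.4 and 32.5 CPM in the KO-titled pair.

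In NAD and ADP-ribose metabolism 12 of 28 measured members were called higher and 1 lower (Nmnat3), with a median log2 ratio of 0.62 (10 higher and 6 lower in the KO-titled pair, median 0.62). Tiparp, a mono-ADP-ribosyltransferase, was at 21.7 and 412 CPM (19.0-fold higher, 17.3 to 20.9) in the WT-titled pair and 21.3 and 401 CPM (18.8-fold higher) in the KO-titled pair. Cd38, an NAD-consuming ectoenzyme, was at 16.3 and 227 CPM (13.9-fold higher, 12.5 to 15.5) and 20.9 and 167 CPM (7.99-fold higher). The deacetylase gene Sirt1 was at 16.8 and 121 CPM (7.20-fold higher, 6.45 to 8.07) and 24.6 and 151 CPM (6.16-fold higher). Nmnat3, a mitochondrial enzyme that makes NAD, was 2.52-fold lower (1.87 to 3.44) in the WT-titled and 4.85-fold lower in the KO-titled pair. The NAD-consuming enzymes named here were higher and Nmnat3 lower in both pairs. Nampt, a gene of NAD salvage in the same list, was however called higher in both pairs (log2 ratios 2.28 and 3.01). Nmnat1, Nadsyn1 and Naprt had no call in the WT-titled pair, and Nadsyn1 and Naprt were called lower in the KO-titled pair.

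Among amino acid transporters and enzymes 11 of 43 measured members were called higher and 7 lower, with a median log2 ratio of 0.09 (−0.52 with library totals, and 14 higher and 7 lower in the KO-titled pair, median 0.38). Nos2, the inducible nitric oxide synthase, was at 0.726 and 147 CPM (202-fold higher, 124 to 354) in the WT-titled pair and 1.23 and 70.9 CPM (57.6-fold higher) in the KO-titled pair. Its arginine transporter gene Slc7a2 was at 3.90 and 155 CPM (39.7-fold higher, 32.0 to 49.8) and 3.25 and 125 CPM (38.6-fold higher). Slc7a11, the cystine carrier that feeds glutathione synthesis, was at 21.2 and 115 CPM (5.42-fold higher, 4.90 to 6.01) and 20.8 and 163 CPM (7.84-fold higher), whereas the genes of the glutathione-forming ligase, Gclm and Gclc, were 5.53-fold lower (5.10 to 6.01) and 3.54-fold lower (3.08 to 4.09) in the WT-titled pair and 1.14-fold lower and 1.51-fold lower in the KO-titled pair. Arg1, arginase 1, was at 1.32 and 0.582 CPM and 11.0 and 0.122 CPM. Odc1, the first enzyme of polyamine synthesis, was at 166 and 1039.5 CPM and 377 and 500.1 CPM, the untreated KO library standing above the untreated WT library. Nos2, Slc7a2 and Slc7a11 thus had the same calls in both pairs, whereas Gclm and Gclc were called in the WT-titled pair alone.

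For zinc, iron and copper handling 12 of 35 measured members were called higher and 2 lower (Hmox1, Slc40a1), with a median log2 ratio of 0.51 (−0.10 with library totals, and 10 higher and 1 lower in the KO-titled pair, median 0.31). The zinc importer gene Slc39a14 was at 16.5 and 128 CPM (7.75-fold higher, 6.93 to 8.68) in the WT-titled pair and 17.5 and 53.5 CPM (3.05-fold higher) in the KO-titled pair. Lcn2, whose product binds bacterial siderophores, was at 2.18 and 22.4 CPM (10.3-fold higher, 7.61 to 14.2) and 2.96 and 7.46 CPM (2.52-fold higher). Steap4, a metalloreductase, had 2 and 91 counts and 0 and 42 counts. Slc40a1, encoding the iron exporter ferroportin, was at 62.0 and 17.1 CPM in the WT-titled pair and 29.9 and 37.2 CPM in the KO-titled pair, so that its loss, like that of Hmox1, was not seen in the KO-titled pair. The ferritin heavy chain gene Fth1 had the highest level of the list after LPS (21261) and was called in neither pair.

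Lipid genes were called in both directions, as were all genes measured (15.4% higher and 15.0% lower). Of 41 measured members 11 were called higher and 6 lower, with a median log2 ratio of −0.11 (6 higher and 8 lower in the KO-titled pair, median −0.41). Ch25h, which makes 25-hydroxycholesterol, was at 0.998 and 90.0 CPM (90.2-fold higher, 59.3 to 144) in the WT-titled pair and 0.506 and 66.9 CPM (132-fold higher) in the KO-titled pair. The acyl-CoA synthetase gene Acsl1 was at 44.4 and 273 CPM (6.15-fold higher, 5.74 to 6.59) and 45.9 and 126 CPM (2.75-fold higher). Abcd2, a peroxisomal transporter, was at 11.2 and 0.524 CPM (21.4-fold lower, 11.1 to 47.3) and 6.00 and 0.795 CPM (7.55-fold lower). Lpin1, a phosphatidate phosphatase, was at 22.9 and 1.51 CPM (15.1-fold lower, 10.2 to 23.4) and 11.8 and 3.12 CPM (3.79-fold lower). Hilpda, a lipid droplet protein gene, had opposite calls, at 5.31 and 42.8 CPM in the WT-titled and 47.0 and 10.4 CPM in the KO-titled pair, and so had the transporter gene Abca9, at 19.1 and 5.59 CPM and 5.68 and 12.4 CPM. Of the lipid mediator genes 6 of 37 measured members were called higher and 7 lower, with a median log2 ratio of −0.01 (9 higher and 6 lower in the KO-titled pair, median 0.09). Prostaglandin genes were called in both directions in the WT-titled pair. Ptgs2, the inducible cyclooxygenase, was at 2.09 and 270.2 CPM (129.5-fold higher, 96.9 to 177) and 3.43 and 63.4 CPM (18.5-fold higher). Ptges, a prostaglandin E synthase, was at 4.67 and 70.5 CPM (15.1-fold higher, 12.3 to 18.6) and 6.07 and 14.3 CPM (2.35-fold higher). The constitutive cyclooxygenase gene Ptgs1 was at 22.2 and 1.69 CPM in the WT-titled and 4.99 and 5.87 CPM in the KO-titled pair, and Hpgd, which breaks prostaglandins down, at 16.5 and 1.28 CPM and 2.46 and 11.3 CPM. The receptors of lysophosphatidic acid diverged in both pairs, with Lpar1 15.7-fold higher (11.0 to 23.1), Lpar5 17.4-fold lower (10.2 to 32.2) and Lpar6 11.4-fold lower (9.37 to 14.03) in the WT-titled pair, and 6.03-fold higher, 19.3-fold lower and 14.4-fold lower in the KO-titled pair.

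Of other G protein-coupled receptors, 11 of 35 measured members were called higher and 7 lower, with a median log2 ratio of 0.10 (−0.51 with library totals, and 7 higher and 10 lower in the KO-titled pair, median −0.72). Ccrl2, a chemerin-binding receptor, was at 5.31 and 443 CPM (83.4-fold higher, 69.5 to 101) in the WT-titled pair and 9.40 and 442 CPM (47.0-fold higher) in the KO-titled pair. Gpr84, a receptor of medium-chain fatty acids, was at 2.72 and 84.7 CPM (31.1-fold higher, 24.0 to 41.0) and 3.94 and 94.0 CPM (23.9-fold higher). Hcar2, the niacin receptor, was at 3.08 and 28.4 CPM (9.21-fold higher, 7.14 to 12.1) and 0.904 and 30.5 CPM (33.7-fold higher). Cnr2, the cannabinoid receptor of immune cells, was at 36.3 and 0.699 CPM (52.0-fold lower, 29.6 to 101) and 34.7 and 0.612 CPM (56.7-fold lower). These receptors were on the same side in both pairs, but Gprc5b was at 1.36 and 13.9 CPM in the WT-titled and 17.9 and 2.75 CPM in the KO-titled pair. For cyclic nucleotide signalling 8 of 37 measured members were called higher and 6 lower, with a median log2 ratio of −0.06 (6 higher and 6 lower in the KO-titled pair, median −0.11). The adenosine receptor gene Adora2a was at 3.22 and 64.7 CPM (20.1-fold higher, 15.8 to 25.9) and 1.88 and 51.8 CPM (27.5-fold higher). The phosphodiesterase gene Pde4b, which degrades cAMP, was at 23.1 and 257 CPM (11.1-fold higher, 10.1 to 12.2) and 34.9 and 171 CPM (4.91-fold higher). The related receptor gene Adora2b was at 2.63 and 42.4 CPM and 11.1 and 6.91 CPM. The adenylyl cyclase gene Adcy9 and the anchoring protein gene Akap10 were 3.55-fold lower (2.84 to 4.47) and 3.46-fold lower (3.07 to 3.90) in the WT-titled and 3.499-fold lower and 3.39-fold lower in the KO-titled pair.

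For actin and membrane shape 14 of 50 measured members were called higher and 2 lower (Myh9, Myo7a), with a median log2 ratio of 0.35 (−0.26 with library totals, and 13 higher and 1 lower in the KO-titled pair, median 0.62). Fscn1, which encodes the actin-bundling protein fascin, was at 0.590 and 15.5 CPM (26.3-fold higher, 15.1 to 49.99) in the WT-titled pair and 0.506 and 17.3 CPM (34.1-fold higher) in the KO-titled pair. For secretion and endosome traffic 16 of 47 measured members were called higher and 3 lower (Gramd4, Rab27a, Rab3il1), with a median log2 ratio of 0.63 (−0.01 with library totals, and 15 higher and 3 lower in the KO-titled pair, median 0.70). Stx11, a syntaxin of immune cells, was at 7.39 and 280.5 CPM (37.9-fold higher, 32.5 to 44.6) and 15.4 and 304 CPM (19.7-fold higher). The endosomal gene Ehd1 was at 148 and 1027 CPM (6.94-fold higher, 6.69 to 7.21) and 179 and 991 CPM (5.53-fold higher). Rab27a, a GTPase of secretory granules, was at 7.39 and 1.34 CPM (5.52-fold lower, 3.55 to 8.95) and 5.50 and 1.16 CPM (4.73-fold lower). For autophagy and lysosome genes 7 of 51 measured members were called higher and 6 lower, with a median log2 ratio of 0.19 (−0.42 with library totals, and 3 higher and 8 lower in the KO-titled pair, median −0.22), with Ctsc, encoding cathepsin C, at 638 and 2264 CPM (3.55-fold higher, 3.48 to 3.62) and 476 and 2086 CPM (4.39-fold higher). The kinase gene Ulk1 was at 55.8 and 24.4 CPM (2.29-fold lower, 2.05 to 2.56) and 65.6 and 22.3 CPM (2.94-fold lower). Ctsb, the most abundant member after LPS, was at 9124 and 18532 CPM and 15009.6 and 11555 CPM, with the untreated KO library again above the KO library with LPS.

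Among genes of the matrix, of proteases and of coagulation 24 of 44 measured members were called higher and 2 lower (Fn1, Mmp19), with a median log2 ratio of 1.36 (20 higher and 8 lower in the KO-titled pair, median 0.72). Serpinb2, a plasminogen activator inhibitor, was at 0.590 and 323 CPM (548-fold higher, 320.2 to 1029.9) in the WT-titled pair and 3.72 and 169 CPM (45.5-fold higher) in the KO-titled pair. Timp1, a metalloproteinase inhibitor, was at 0.317 and 47.6 CPM (149.8-fold higher, 72.4 to 374) and 1.63 and 36.0 CPM (22.1-fold higher). The collagenase gene Mmp13 was at 18.1 and 1769.6 CPM (97.8-fold higher, 88.6 to 108) and 39.0 and 1453 CPM (37.2-fold higher). Mmp12, macrophage elastase, was at 33.2 and 252 CPM in the WT-titled and 118 and 75.5 CPM in the KO-titled pair, and Fn1, fibronectin, at 8.44 and 2.91 CPM and 4.09 and 9.55 CPM. For sialic acid-binding, CD300 and Fc-type receptors 12 of 38 measured members were called higher and 3 lower (Cd300lb, Marco, Treml4), with a median log2 ratio of 0.42 (−0.22 with library totals, and 12 higher and 8 lower in the KO-titled pair, median 0.55). The Fc receptor genes Fcgr2b and Fcgr4 were at 84.9 and 543 CPM (6.39-fold higher, 6.08 to 6.72) and 154 and 619 CPM (4.02-fold higher, 3.86 to 4.18) in the WT-titled pair and were 4.69-fold higher and 3.24-fold higher in the KO-titled pair. Cd300lb was at 152 and 9.49 CPM (16.04-fold lower, 13.7 to 18.9) and 196 and 4.04 CPM (48.5-fold lower). Siglec1, the sialoadhesin gene, had opposite calls, with 183 and 784 CPM and 617 and 152 CPM.

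Survival genes and brakes on growth held members on both sides, as did all genes measured. For survival and death 17 of 39 measured members were called higher and 5 lower (Bcl2l1, Bmf, Bnip3, Dapk1, Pdcd4), with a median log2 ratio of 0.39 (−0.22 with library totals, and 16 higher and 6 lower in the KO-titled pair, median 0.48). Cflar, an inhibitor of caspase 8, was at 102 and 1462 CPM (14.4-fold higher, 13.8 to 15.0) in the WT-titled pair and 96.0 and 1239 CPM (12.9-fold higher) in the KO-titled pair, and Casp12 had 11 and 161 counts and 5 and 158 counts. The BCL2-related survival genes Bcl2a1a and Bcl2a1d were 14.2-fold higher (11.1 to 18.4) and 21.5-fold higher (18.2 to 25.6) in the WT-titled and 13.3-fold higher and 18.1-fold higher in the KO-titled pair, but they are near-identical copies and the division of reads between them is uncertain. Bmf, a pro-apoptotic BH3-only gene, was at 37.0 and 0.990 CPM (37.3-fold lower, 23.2 to 64.4) and 34.7 and 0.245 CPM (142-fold lower). Dapk1, a death-associated kinase gene, was at 76.3 and 17.7 CPM (4.31-fold lower, 3.81 to 4.89) and 61.9 and 14.3 CPM (4.33-fold lower). Bcl2l1, which encodes the survival protein BCL-XL, was 2.03-fold lower (1.82 to 2.26) in the WT-titled pair and 2.38-fold lower in the KO-titled pair. For p53, growth arrest and stress brakes 10 of 39 measured members were called higher and 13 lower, with a median log2 ratio of −0.05 (8 higher and 13 lower in the KO-titled pair, median −0.37). Cdkn1a, encoding the cell cycle inhibitor p21, was at 300.3 and 1027 CPM (3.42-fold higher, 3.32 to 3.52) and 319 and 1143 CPM (3.59-fold higher). Gadd45b was at 22.4 and 288 CPM (12.9-fold higher, 11.7 to 14.1) and 45.1 and 289 CPM (6.41-fold higher). Ddit4, encoding REDD1, another restrainer of mTORC1 beside Sesn1, was at 37.7 and 1.81 CPM (20.9-fold lower, 14.6 to 31.0) and 19.6 and 1.35 CPM (14.6-fold lower). Ypel2 was at 15.1 and 0.641 CPM (23.6-fold lower, 13.05 to 47.8) and 11.3 and 1.28 CPM (8.78-fold lower). These 4 genes had the same calls in both pairs.

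Cell division genes were the list with the largest share called lower in the WT-titled pair, but not in the KO-titled pair. For mitosis and DNA replication 2 of 50 measured members were called higher (Ccne1, Pcna) and 37 lower, with a median log2 ratio of −1.56 (5 higher and 1 lower in the KO-titled pair, median 0.11). With the untreated library titled KO as the baseline of the WT library with LPS, which gave calls of lower for 15.0% of all genes, 18 members were called lower and the median was −0.68. Plk1, a mitotic kinase, was at 29.7 and 2.62 CPM in the WT-titled pair and 10.8 and 7.77 CPM in the KO-titled pair, Cdc20, an activator of the anaphase-promoting complex, at 34.7 and 3.26 CPM and 12.5 and 9.61 CPM, and Anln, a cytokinesis protein, at 30.4 and 3.32 CPM and 9.29 and 8.57 CPM. In each case the untreated WT library stood above the other 3, and the WT library with LPS stood below the other 3. Ccne1 and Pcna, of the G1 to S transition and of replication, were called higher in both pairs, Pcna being at 342 and 736 CPM (2.15-fold higher, 2.09 to 2.21) and 323 and 837 CPM (2.59-fold higher). Of the cyclin D and G1 regulators 3 of 17 measured members were called higher (Ccnd2, Cdk6, Rgcc) and 6 lower, with a median log2 ratio of −0.52 (5 higher and 5 lower in the KO-titled pair, median −0.18), with Ccnd2, cyclin D2, at 3.27 and 83.0 CPM (25.4-fold higher, 20.0 to 32.7) and 6.26 and 52.9 CPM (8.45-fold higher). Cdk2 was at 33.8 and 8.85 CPM (3.82-fold lower, 3.20 to 4.58) and 26.7 and 11.7 CPM (2.29-fold lower).

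**Figure D5:**
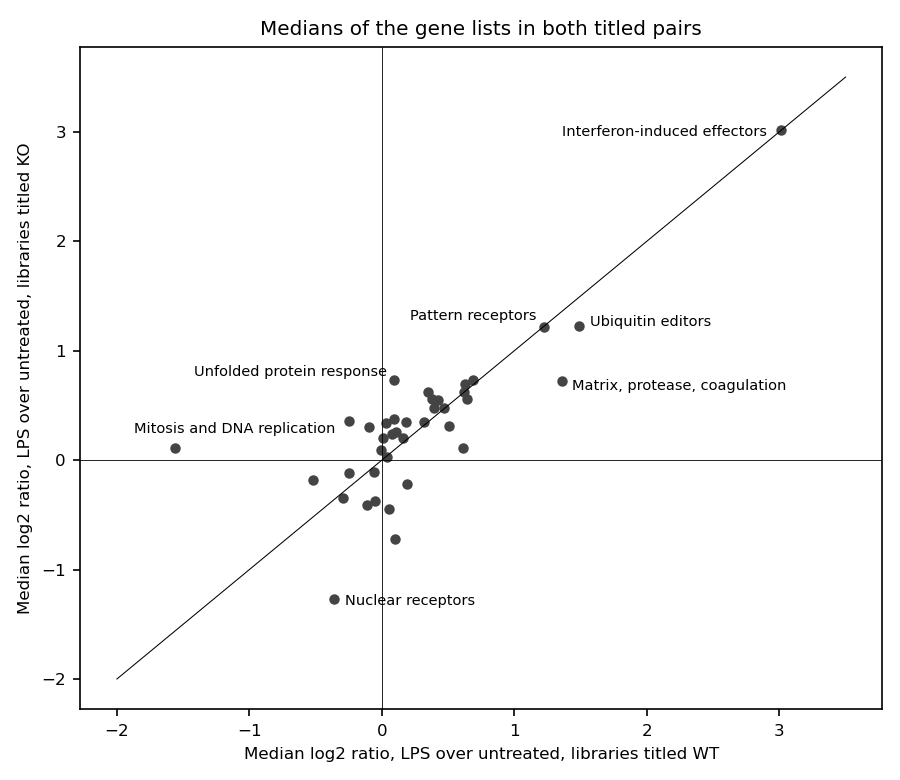
Median log2 ratio (LPS over untreated) of the measured members of each of 39 gene lists in the WT-titled pair (x axis) and in the KO-titled pair (y axis), with the line marking equal medians. The mitosis and DNA replication list stands apart at −1.56 and 0.11, while the interferon-induced effectors lie at 3.01 and 3.02.

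Among chromatin enzymes 6 of 57 measured members were called higher and 12 lower, with a median log2 ratio of −0.29 (9 higher and 11 lower in the KO-titled pair, median −0.35). Setdb2, a histone H3 lysine 9 methyltransferase gene, was at 11.1 and 130.4 CPM (11.7-fold higher, 10.3 to 13.4) in the WT-titled pair and 10.5 and 144 CPM (13.7-fold higher) in the KO-titled pair. Arid5a, which also stabilises Il6 mRNA, was at 10.9 and 179 CPM (16.4-fold higher, 14.4 to 18.8) and 8.53 and 219 CPM (25.7-fold higher). Hdac11 had 60 and 2 counts and 56 and 6 counts, and the demethylase genes Kdm2b and Kdm5b were 5.51-fold lower (4.52 to 6.78) and 3.58-fold lower (2.95 to 4.38) in the WT-titled pair, and 3.59-fold lower and 4.15-fold lower in the KO-titled pair. Among regulators of RNA decay 14 of 44 measured members were called higher and 5 lower (Mex3b, Tnrc6b, Zc3h12b, Zfp36l1, Zfp36l2), with a median log2 ratio of 0.32 (−0.29 with library totals, and 15 higher and 7 lower in the KO-titled pair, median 0.35). Within the tristetraprolin family Zfp36, which destabilises cytokine mRNAs, was at 125 and 471 CPM (3.76-fold higher, 3.60 to 3.92) and 191 and 447 CPM (2.34-fold higher), whereas Zfp36l1 was at 75.2 and 13.8 CPM (5.45-fold lower, 4.76 to 6.27) and 125 and 9.67 CPM (12.9-fold lower). Zfp36l2 was at 237 and 54.4 CPM (4.35-fold lower, 4.06 to 4.67) and 312 and 25.6 CPM (12.2-fold lower). The family thus split in the same way in both pairs. Noct, a circadian deadenylase-like gene, was at 24.4 and 254 CPM (10.4-fold higher, 9.52 to 11.4) and 20.9 and 138 CPM (6.599-fold higher).

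The machinery of gene expression itself showed few calls. Of splicing factors 1 of 47 measured members was called higher (Tra2a) and 1 lower (Clk4), with a median log2 ratio of 0.01 (−0.60 with library totals, and 6 higher and 2 lower in the KO-titled pair, median 0.20). Tra2a was 2.47-fold higher (2.34 to 2.61) and Clk4, a kinase of splicing factors, was 3.29-fold lower (2.77 to 3.92) in the WT-titled pair, against 2.78-fold higher and 2.98-fold lower in the KO-titled pair. Of ribosome biogenesis genes 2 of 50 measured members were called higher (Ltv1, Wdr43) and 1 lower (Wdr12), with a median log2 ratio of 0.08 (−0.53 with library totals, and 5 higher and 2 lower in the KO-titled pair, median 0.24). Of translation factors 5 of 41 measured members were called higher (Eif1, Eif1a, Eif2ak2, Eif4e, Eif4g2) and 5 lower (Eef2k, Eif2ak3, Eif2ak4, Eif4ebp2, Pdcd4), with a median log2 ratio of 0.18 (−0.43 with library totals, and 3 higher and 4 lower in the KO-titled pair, median 0.35), with Eif2ak2, encoding the double-stranded RNA sensor PKR, at 91.2 and 402 CPM (4.41-fold higher, 4.198 to 4.64) and 103 and 426 CPM (4.15-fold higher). Pdcd4, an inhibitor of translation initiation, was at 23.8 and 2.68 CPM (8.87-fold lower, 6.56 to 12.3) and 17.2 and 3.73 CPM (4.61-fold lower). For the unfolded protein and integrated stress response 4 of 33 measured members were called higher (Ero1l, Ppp1r15a, Ppp1r15b, Xbp1) and 2 lower (Eif2ak3, Herpud1), with a median log2 ratio of 0.09 (−0.52 with library totals, and 10 higher and 5 lower in the KO-titled pair, median 0.73). Both phosphatase subunits that reverse eIF2α phosphorylation were higher, Ppp1r15a at 14.7 and 277 CPM (18.8-fold higher, 16.8 to 21.1) and 15.9 and 413 CPM (25.9-fold higher). Ppp1r15b was at 63.7 and 523 CPM (8.21-fold higher, 7.76 to 8.69) and 66.3 and 522 CPM (7.87-fold higher), while Eif2ak3, encoding the eIF2α kinase PERK, was at 22.0 and 3.55 CPM (6.21-fold lower, 4.75 to 8.24) and 19.3 and 5.38 CPM (3.59-fold lower). The genes of the eIF2α kinases PKR and PERK thus had opposite calls in both pairs. Herpud1, a gene of endoplasmic reticulum stress, was at 62.7 and 19.1 CPM in the WT-titled and 23.4 and 62.5 CPM in the KO-titled pair. For heat shock and proteasome genes 10 of 41 measured members were called higher and 0 lower, with a median log2 ratio of 0.38 (−0.23 with library totals, and 7 higher and 0 lower in the KO-titled pair, median 0.56), with the proteasome activator gene Psme2 at 81.2 and 282 CPM (3.47-fold higher, 3.29 to 3.66) and 89.5 and 314 CPM (3.51-fold higher). Hspa1b was at 2.54 and 96.8 CPM (38.1-fold higher, 29.2 to 50.7) and 11.0 and 26.3 CPM (2.40-fold higher). Its near-identical copy Hspa1a was at 1.36 and 32.9 CPM and 6.73 and 8.63 CPM, so their reads cannot be assigned with certainty. For NRF2 and antioxidant genes 8 of 34 measured members were called higher and 7 lower, with a median log2 ratio of 0.11 (−0.50 with library totals, and 11 higher and 4 lower in the KO-titled pair, median 0.26). Sod2, mitochondrial superoxide dismutase, was at 102 and 1103 CPM (10.8-fold higher, 10.3 to 11.3) and 129 and 737 CPM (5.71-fold higher). Osgin1 was at 20.8 and 1.81 CPM (11.5-fold lower, 7.99 to 17.1) and 26.6 and 2.20 CPM (12.1-fold lower), while its relative Osgin2 was 4.79-fold higher (4.202 to 5.47) and 3.05-fold higher.

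Genes not annotated as protein coding were, as a whole, called higher more often than protein-coding ones, but the classes differed. Of 1207 such genes 274 (22.7%) were called higher and 167 (13.8%) lower, against 14.6% and 15.1% of 11119 protein-coding genes. By class, 56 of 161 antisense genes were called higher and 28 lower, and 40 of 185 long intergenic RNAs higher and 59 lower. Of the 461 processed pseudogenes, the most numerous class, 61 (13.2%) were called higher and 19 (4.12%) lower, and 83 and 11 in the KO-titled pair. The sources used here do not say whether the authors counted by strand, so antisense counts may hold reads of the partner gene. Mir155hg, the host transcript of the inflammatory microRNA miR-155, had 2 and 984 counts in the WT-titled pair and 2 and 796 counts in the KO-titled pair. AW112010, a transcript induced in activated immune cells, was at 14.6 and 839 CPM (57.7-fold higher, 51.6 to 64.6) and 31.6 and 639 CPM (20.3-fold higher), and its level after LPS, 1090.0, was above that of Tnfaip3 at 205. Cxcl11 and Mx2, which the table annotates as polymorphic pseudogenes, were at 0.0907 and 141 CPM (1551-fold higher, 429 to 12814) and 16.6 and 724 CPM (43.7-fold higher, 39.4 to 48.6) in the WT-titled pair and at 0.0723 and 137 CPM (1897-fold higher, 525 to 15674) and 19.3 and 683 CPM (35.4-fold higher) in the KO-titled pair. Mir17hg, the host of a microRNA cluster of proliferation, was 2.59-fold higher (1.88 to 3.59) in the WT-titled and 2.68-fold higher in the KO-titled pair, and Ftx, a noncoding neighbour of Xist, was 3.40-fold lower (2.18 to 5.48) and 3.14-fold lower. Malat1 was the most abundant member of the noncoding list after LPS, at 1461 and 2093 CPM in the WT-titled pair and 1492 and 824 CPM in the KO-titled pair, and was called in neither.

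Genes were also grouped by the letters of their symbols, which gave 133 families with at least 10 measured protein-coding members. The families with the largest share called higher were Ifi (14 of 15), Gbp (9 of 10), Ccl (8 of 10), Mmp and Il (8 of 12 and 26 of 39), Parp (7 of 12), Bcl (9 of 18) and Irf (5 of 11, Irf1, Irf2, Irf2bpl, Irf5 and Irf7). In the Ifi family Ifi205 was at 3.63 and 687 CPM (189-fold higher, 152 to 239) in the WT-titled pair and 6.94 and 549 CPM (79.1-fold higher) in the KO-titled pair, and 1 member, Ifi27, was called lower. Of the caspases 4 of 10 were called higher and 0 lower. Casp4, the cytosolic LPS sensor, was at 16.1 and 197 CPM (12.2-fold higher, 10.9 to 13.7) and 17.4 and 182 CPM (10.5-fold higher). The largest shares called lower were those of Kif (15 of 30), Rad (8 of 18), Mcm (Mcm2, Mcm3, Mcm5 and Mcm7 of 10), Akap (Akap8, Akap8l, Akap10 and Akap17b of 11) and Klhl (7 of 20). The KO-titled pair had 8 kinesin, 3 Rad and 0 Mcm genes called lower, and 5 Akap and 6 Klhl genes. Kif21b, a kinesin not of the mitotic kind, was lower in both pairs, at 98.9 and 6.06 CPM (16.3-fold lower, 13.4 to 20.1) and 73.7 and 6.12 CPM (12.04-fold lower), whereas the helicase subunit gene Mcm5 was at 86.1 and 33.0 CPM and 42.4 and 60.3 CPM. In 10 families no member was called, among them the complex I subunits Ndufa (13 genes, median log2 ratio 0.21, or −0.37 with library totals) and Ndufb (10 genes), the mitochondrial ribosomal proteins Mrps (29 genes), the anaphase-promoting complex Anapc and the splicing factors Srsf. The Zfp family, with 304 members, had 21 called higher and 40 lower in the WT-titled pair and 15 and 96 in the KO-titled pair.

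The label of the cells was checked against markers. All 12 macrophage markers passed the filter, with summed CPM between 16000 and 26800 over the 4 libraries, led by Lyz2, and the surface marker Adgre1 was at 3044 and 3698 CPM in the WT-titled pair and 2669 and 4422 CPM in the KO-titled pair. Cd163, a scavenger receptor, was at 5.53 and 1.05 CPM in the WT-titled pair and at 2.17 and 2.20 CPM in the KO-titled pair. Of neutrophil markers 3 of 13 passed the filter, and their summed CPM was 135 and 240.0 in the WT-titled and 132 and 170.0 in the KO-titled pair, most of it Csf3r. Of 8 T cell markers 2 passed, Cd4 at 29.3 and 52.3 CPM and 35.6 and 56.0 CPM, and Lck with 1 and 53 counts in the WT-titled and 11 and 98 counts in the KO-titled pair. Of 7 B cell markers 2 passed, Ighm, an immunoglobulin heavy chain gene, at 76.6 and 37.6 CPM and 24.8 and 140.2 CPM and Cd79b at 31.4 and 9.72 CPM and 16.96 and 27.4 CPM, while Blk was at 0 counts in all 4 libraries. The summed CPM of the B cell markers was 108 and 47.6 in the WT-titled pair and 42.1 and 168 in the KO-titled pair, so it followed the same order of libraries as Marco. Fibroblast, dendritic cell and mast cell markers had 1, 2 and 2 members past the filter, and none of 8 erythroid markers passed. Mast cell and basophil markers summed to 1.27 and 8.33 CPM in the WT-titled pair and 8.28 and 3.85 CPM in the KO-titled pair, with Prss34 at 0.590 and 2.62 CPM and 3.72 and 0.184 CPM. Their part in the differences described above was not tested.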

How the data were processed

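RNA of 4 libraries, 1 per group, was selected with poly-T beads from 3 µg of total RNA and sequenced. HISAT2 2.0.5 and the build mm10 are named in the submitters' processing notes, and the sources used here name neither the counting program nor its annotation and use of strand. Per the file headers, the deposited table gives for every gene the raw count in each library, its length and its annotation. It also holds deposited FPKM values, which were used as an alternative with a pseudocount of 1, and 8 further columns of per-sample values that were not used.

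From the counts, TMM factors were computed with edgeR 4.0.16 in R 4.3.3 and everything else with SciPy 1.17.1, NumPy 2.4.6 and pandas 2.3.3 under Python 3.11.15. DESeq2 1.42.0 gave the size factors of an alternative. With 1 library per group there are 0 residual degrees of freedom, so no dispersion was estimated and no test was run. Genes were kept where the 4 libraries averaged 1 CPM or more. A call needed a log2 ratio of at least 1 in size (prior count of 2) and an exact 95% Clopper-Pearson interval that excluded no change. Reads carry no molecular identifiers, so intervals and floors cover counting error only. Counts were also simulated with the depths of the WT-titled comparison (12326 genes) and with Poisson counting error only. Called were 100% of the 47 genes changed 3-fold, 98.1% of the 52 changed 4-fold and 4.00% of the 50 changed 1.5-fold. Of unchanged genes 0.0577% were called, a share that leaves out wrong calls from other differences between real libraries.

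The comparison, the gene lists and the rule for named genes were chosen with earlier results of these data known. Named were the 12 largest gains and losses in TPM, up to 4 members of largest ratio per list and direction with the member of highest level, genes with at most 3 counts in one library, abundant genes with a fold between 0.8 and 1.25, noncoding genes, leaders of symbol families, and Fbxw7, Lyz1 and Lyz2. Other genes, such as Mafg, Ahr and members named because a list or family had 5 or fewer calls, were chosen after their values were seen. Alternatives were other scaling factors, prior counts, filters and folds, the FPKM values, the other untreated library and a shorter promoter window. Some genes and 1 gene list are not reported here.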

Additional observations from a re-analysis of the deposited data

Results flagged for a closer look

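A difference in opposite directions in the WT-titled and the KO-titled pair flagged 18 of the genes named above and 1 list. Over all measured genes such opposite calls numbered 155, of which 93 were higher in the WT-titled pair and 62 lower. The differences between the pairs were not tested, since each rests on 1 library per group, and whether they follow the genotype or the pairing of libraries seen for Lyz1 cannot be told apart.

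Higher in the WT-titled and lower in the KO-titled pair were Lyz1 (log2 ratios 3.49 and −3.60), the receptor gene Gprc5b (3.26 and −2.66), the lipid droplet gene Hilpda (2.99 and −2.17), Spp1 (2.30 and −1.52), Ctss (2.21 and −1.74) and Siglec1 (2.10 and −2.02). The same order held for the mast cell protease gene Prss34 (1.98 and −3.80) and the orphan receptor genes Nr4a2 (1.58 and −1.62) and Nr4a1 (1.12 and −1.85). By the choice of opposite calls, each of these genes had to be most abundant in the untreated KO library or the WT library with LPS.

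Lower in the WT-titled and higher in the KO-titled pair were Hpgd (−3.58 and 2.16), Abca9 (−1.76 and 1.11), Herpud1 (−1.71 and 1.42), Fn1 (−1.50 and 1.21), Cat (−1.34 and 1.11), Pcx (−1.85 and 1.55), Marco (−1.19 and 3.52), Tubb5 (−1.05 and 1.16) and Ighm (−1.02 and 2.49). The list of mitosis and DNA replication genes had a median log2 ratio of −1.56 in the WT-titled and 0.11 in the KO-titled pair.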

How the results depend on the processing

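The counts of calls depended on scaling and thresholds. Genes called higher numbered 1899 and became 1171 with library totals and 885 at a fold of 4. Genes called lower numbered 1847 and became 4111 with library totals, 1122 at a mean of at least 5 CPM, 528 at a fold of 4 and 761 with the deposited FPKM, for which no counting interval was available. The share of calls that were higher was 22.2% with library totals, 62.6% at a fold of 4 and 66.5% with FPKM. With library totals 20 of 39 list medians changed sign: protein kinases (−0.14), bHLH factors (−0.56), metals (−0.10), amino acid genes (−0.52), citric acid cycle (−0.45), other GPCRs (−0.51), actin (−0.26), secretion (−0.01), autophagy (−0.42), sialic acid and Fc-type receptors (−0.22), survival (−0.22), RNA decay (−0.29), splicing (−0.60), ribosome biogenesis (−0.53), translation (−0.43), unfolded protein response (−0.52), heat shock (−0.23), NRF2 (−0.50), noncoding (−0.57) and housekeeping genes (−0.58). Fewer medians changed sign under each of the other settings. The phospholipase median was 0.03 with DESeq2 size factors, 0.08 with upper quartile factors and 0.03 with FPKM. Upper quartile factors gave 0.03 for cyclic nucleotide and 0.04 for p53 genes. The lipid uptake median became 0.04 and the noncoding one −0.03 at 5 CPM, and the bHLH one −0.34 with no filter. The untreated library titled KO as the baseline gave −0.26 for bHLH, 0.01 for cyclic nucleotide, −0.36 for other GPCR and −0.11 for noncoding genes. The LPS library titled KO, an alternative chosen after seeing the data, gave −0.29 for bHLH, 0.13 for nucleotide synthesis, −0.08 for other GPCR and −0.08 for noncoding genes. The sizes of single ratios moved more often than their signs. Of 231 named genes, the log2 ratio left its counting interval for 189 with library totals, 170 with FPKM and 62 with upper quartile factors. DESeq2 size factors moved 17. Besides the called genes of opposite sign given next, 154 moved with the untreated library titled KO and 150 with the LPS library titled KO. Of the genes named with a call, the untreated library titled KO as the baseline gave log2 ratios of opposite sign for Gprc5b (−0.36), Hilpda (−0.14), Ighm (0.60), Marco (0.85), Nr4a1 (−0.07), Nr4a2 (−0.22) and Prss34 (−0.49). With the LPS library titled KO against the untreated library titled WT, the sign changed for Fn1 (0.18), Ighm (0.87), Lyz1 (−0.11), Marco (1.48), Nr4a1 (−0.66), Prss34 (−1.27), Siglec1 (−0.27) and Tubb5 (0.28). Of the 13 genes named without a call, the sign changed for 7 with library totals, 2 with the untreated library titled KO (Lyz2 and Tmsb4x) and 3 with the LPS library titled KO (Lyz2, Malat1 and Tmsb4x), and for Tmsb4x with DESeq2 size factors, upper quartile factors and FPKM. In the 150 bases before the start alone, where fewer bases were searched, fewer windows held a motif. Genes called higher had the ISRE in 5.31%, AP-1 in 5.00% and the TATA box in 5.39% (1.67%, 2.66% and 2.90% of all windows). Genes called lower had E2F in 1.71% and CCAAT in 32.8% (1.33% and 29.2% of all windows). No paired analysis was possible because each group has 1 library, and leaving out a library leaves no comparison.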

Other observations

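Some genes with the same call were also neighbours along the chromosomes, a pattern chosen after the values were seen and given without a test. Runs were counted over consecutive measured protein-coding genes with 1 call and gaps of at most 500 kb, other genes between them being passed over. There were 26 runs of 5 genes or more, 25 of them higher and 1 lower. They were found among 1625 protein-coding genes called higher and 1680 called lower, most of which lay outside such runs. On chromosome 14 (59201209 to 59585764) a run of 8 genes held the Phf11 genes, Setdb2, Rcbtb1 and Cab39l, with the same call for 8 in the KO-titled pair, and on chromosome 11 (82951349 to 83215154) a run of 7 was made of Slfn genes, with 6. The run of lower genes lay on chromosome 5 (137605103 to 137768450) and held 6 genes from Pcolce to Tsc22d4, of which 5 were lower in the KO-titled pair. On chromosome 7 (19176421 to 19310051) 6 genes from Eml2 and Vasp to Fosb were higher in the WT-titled pair and 0 of them were called higher in the KO-titled pair. The Phf11 and Slfn runs hold near-identical copies, for which the division of reads is uncertain.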
